A study of Mus musculus with 16 samples.

Results

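Clusters 6 and 10 are the groups that the authors' clustering of mouse spinal cord cells labelled microglial, and they were compared here with each other inside the same animal. Cells were taken by the cluster number that opens their deposited cell type label: 1316 cells of Cluster 6 and 813 cells of Cluster 10, of 18203 cells in all. Of the 16 mice, 14 had at least 10 cells in both clusters, with 1310 cells of Cluster 6 and 812 of Cluster 10 between them. UMIs (unique molecular identifiers, each a counted mRNA molecule) were summed per mouse and cluster. Levels are given as CPM, the UMIs of a gene scaled to the usual common total in each sum of cells. Because the clusters were made from these same expression values, differences between them are described without a p-value.

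The series asked how removing the Wnt receptor Ryk from astrocytes changes spinal cord cells after a dorsal column lesion at C5. Single cells came from 16 mice aged 8-10 weeks, 1 animal per library, all given tamoxifen and all carrying GFAPcreERT2. The conditional knockouts (cKO) were Rykfl/fl,GFAPcreERT2 and the wild-type controls (WT) Ryk+/+,GFAPcreERT2, in replicates 1 and 2 of each genotype, uninjured (labelled Sham) or at 1, 7 or 14 d after injury. This Cre is driven by a promoter of astrocytes, so the microglia studied here carry floxed or normal Ryk alleles that the design did not aim at. The mice compared were 2 WT and 1 cKO uninjured, 1 WT and 2 cKO at 1 d, and 4 (2 per genotype) at 7 d as well as at 14 d. The animals left out were the uninjured cKO replicate 1, with 6 cells of Cluster 6 and 0 of Cluster 10, and the WT replicate 2 at 1 d, whose library holds 1 cell. Ryk had 114 UMIs in Cluster 6 and 101 in Cluster 10 over all 14 mice, a median of 23.4 and 20.7 CPM. It was named after its values were seen, and its level in microglia checks nothing about an astrocytic deletion read by 3′ tags.

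Microglia are the resident macrophages of the brain and spinal cord, seeded from the yolk sac and kept in place by signals through the CSF1 receptor, TGF-β and their own transcription factors. At rest they patrol the tissue with fine processes steered by purinergic receptors such as P2RY12. Near damage or myelin debris they can enter a state, often called damage-associated, in which these receptors are lowered while genes for lipid uptake, lysosomal digestion and secreted signals are raised.

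Depth differed widely between libraries and has to be read beside every value. The summed UMIs of Cluster 6 ran from 47601 in the WT replicate 1 at 1 d to 701871 in the WT replicate 2 at 14 d, with a median of 231553. Those of Cluster 10 ran from 23562 in the uninjured cKO replicate 2 to 978701 in the cKO replicate 1 at 14 d, with a median of 183620. The 3 uninjured mice gave only 76595 UMIs of Cluster 10 together, against 401073 of Cluster 6, while the 4 mice at 14 d gave 2732801 and 2184188. The median cell of a library held 407 to 12418 UMIs in Cluster 6 and 622.5 to 13048 in Cluster 10, and was deeper in Cluster 10 in 6 of 14 mice. Mitochondrial transcripts took a larger part of the median cell in Cluster 10 than in Cluster 6 in 11 of 14 mice (medians over mice 2.59% and 2.14%). Whether these differences had a part in the results was not tested.

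Some libraries stood apart or went against their labels. A total of 166 cell barcodes occurred in more than 1 library, and 119 of them joined at least 2 of the same 4 shallow libraries: the replicate 1 animals, WT and cKO, of day 1 and day 7. Pairs of these 4 libraries shared 28 to 115 barcodes, whereas no other pair shared more than 4. Of the 1086 cells of Clusters 6 and 10 in them, 48 (4.42%) carried a shared barcode. Counts of genes, most gene lists and tests are therefore also given without these 4 libraries. In addition, the deposited cell names give another condition than the sample titles for 6 mice, 5 of them among the 14 compared. The titles and the condition column of the cell table match in all mice and were used. The names would turn the WT replicate 2 at 14 d into a cKO at 14 d, the WT replicate 2 at 7 d into a WT at 1 d, the uninjured WT replicate 2 into an uninjured cKO, the cKO replicate 2 at 14 d into a cKO at 7 d, and the uninjured cKO replicate 2 into a WT at 7 d. Differences between the clusters inside a mouse do not depend on which of these is right, but every comparison of time points or genotypes does.

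Markers of microglia were present in both clusters, at higher levels in Cluster 6. All 10 microglial marker genes were measured in both, at a summed 10418, 14801 and 17350 CPM (lowest, median and highest of 14 mice) in Cluster 6 and 4842, 7361 and 13267 CPM in Cluster 10, lower in Cluster 10 in 14 of 14 mice. Among them Cx3cr1, the fractalkine receptor, had a median of 3876 CPM in Cluster 6 and 1708 CPM in Cluster 10. Monocyte and macrophage markers were few but higher in Cluster 10 in 14 of 14 mice, at a summed 158, 540 and 1713 CPM in Cluster 6 and 531, 3397 and 9647 CPM in Cluster 10. Lyz2, lysozyme, made up most of that sum. The 4 with enough counts to be compared, Lyz2, F13a1, Ms4a7 and Fn1, were all at least 2-fold higher in Cluster 10, and 3 and 2 of them with 10 and 50 CPM added. In the uninjured mice 1 was higher and 1 lower (median -0.03). Others were near 0 in both: Ly6c2 had 0 UMIs in both clusters, Ccr2 had 13 UMIs in Cluster 6 and 6 in Cluster 10, and Plac8 had 5 and 2.

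For scale, the cells of Cluster 12, labelled "Immuno" by the authors, were read in the 10 mice with at least 10 of them. Their median level of Ccr2 was 583 CPM, of Ly6c2 85.9 CPM, of Plac8 338 CPM and of S100a4 760 CPM. In the same 10 mice Cluster 10 had a median of 0 CPM of Ccr2, Ly6c2 and Plac8. Sall1, a transcription factor of microglia, had 0 CPM in Cluster 12 in all 10 mice and a median of 82.6 CPM in Cluster 10. Other genes of the monocyte and macrophage list lay between Clusters 6 and 12 or near Cluster 12: in the same mice the medians in Clusters 6, 10 and 12 were 65.3, 465 and 450 CPM for Fn1, 0, 68.1 and 155 CPM for Ms4a7, 528, 2733 and 8831 CPM for Lyz2 and 0, 7.73 and 658 CPM for F13a1. The origin of the Cluster 10 cells was not tested.

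Markers of other cells were present in both clusters, and for several cell types the direction differed between replicates 1 and 2. The 10 oligodendrocyte genes summed to a median of 2297 CPM in Cluster 6 and 2447 CPM in Cluster 10, with Mbp, myelin basic protein, the most abundant. They were lower in Cluster 10 in all 7 mice of replicate 1 (0.554 to 0.948 times Cluster 6) and higher in all 7 of replicate 2 (1.21 to 1.80 times), with list medians of -0.33 and 0.65. Astrocyte genes summed to 385 and 436 CPM, higher in 6 mice and lower in 8, while of 7 compared 4 (Slc1a2 and Gfap among them) were at least 2-fold higher and 1, Slc1a3, lower (median 1.01). In DESeq2 1 was higher, with 10 or 50 CPM added 0 (medians 0.23 and 0.24), and the replicates differ, with 0 of 4 higher in replicate 1 (median -0.54) and 8 of 9 in replicate 2 (1.62). Neuronal genes summed to 248 and 221 CPM, with 2 of 3 at least 2-fold lower and 0 higher in replicate 1 (median -1.56) and 4 of 8 higher and 0 lower in replicate 2 (0.94). Endothelial genes summed to 427 and 533 CPM, with a median of 0.60 over the 3 compared that was -0.18 over 7 (1 higher, 2 lower) without the 4 libraries that share barcodes, and Schwann cell genes, nearly all Pmp22, to 190 and 212 CPM. Those of neutrophils summed to 423 and 222 CPM, lower in Cluster 10 in 13 mice, and were almost wholly Csf3r, a cytokine receptor, while Ly6g and Retnlg had no UMI. Genes of dendritic cells (52.7 and 32.6 CPM, lower in 12 mice), lymphocytes (16.7 and 5.03 CPM), oligodendrocyte precursors (11.1 and 40.0 CPM, higher in 9 mice and lower in 3), pericytes (14.9 and 12.9 CPM), fibroblasts (4.51 and 6.02 CPM) and ependymal cells (0 and 0 CPM) were scarce. Border-associated macrophage genes summed to 128 and 194 CPM, with Lyve1 at 0 UMIs, and of 3 compared 2 (F13a1 and Ms4a7) were at least 2-fold higher (median 2.41; 1 and 0 with 10 and 50 CPM added). In the 3 uninjured mice their sum was instead lower in Cluster 10 and the list had 0 higher and 1 lower (median -0.33). Red blood cell genes were at a median of 44.3 and 37.9 CPM but reached 16215 CPM in Cluster 10 of the cKO replicate 2 at 1 d, and the 3 compared were all at least 2-fold higher, but 1 in DESeq2, in replicate 1 alone or with 10 CPM added. Cells holding UMIs of at least 3 marker genes of other cell types made up 14.9% to 32.6% of cells in the 4 shallow libraries and at least 75% elsewhere. How droplets with 2 cells were treated is not given in the sources used here, and none were sought here. What part RNA from other cells had in any difference was not tested.

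Of 55487 genes in the table, 6229 had enough counts to be compared within mice. In the paired edgeR fit 411 genes (6.6%) were at least 2-fold higher in Cluster 10 and 416 (6.68%) at least 2-fold lower, 827 together (13.3%). Asking in addition that all 14 mice show the direction left 51 higher genes (0.819%) and 144 lower genes (2.31%), 195 in all (3.13%). The median log2 fold change of all genes was -0.02. The direction in each mouse was read from CPM, without the scaling between sums that edgeR applies. On CPM with 10 added, 157 genes were at least 2-fold higher and 737 lower. Genes that every mouse placed on the same side were more often lower than higher in Cluster 10 on that measure. What part scaling had in this was not tested. Scaling moves this balance: the median of all genes was -0.16 in DESeq2, -0.31 in log2 ratios with 10 CPM added and -0.13 with 50 CPM added.

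The counts were made again without the libraries that share barcodes and in the mice of each replicate number. Without those 4 libraries 785 genes were higher and 701 lower among 9837 compared, and 362 were past 2-fold with the same direction in every remaining mouse. By the replicate number of the sample titles, replicate 1 alone gave 798 genes past 2-fold (357 higher, 441 lower) and replicate 2 alone 1431 (852 higher, 579 lower). Each replicate number holds 7 of the 14 paired mice. The highest level in Cluster 6 lay below the lowest in Cluster 10, over all mice, for Fth1 and Rhoc, and the reverse held for 8 genes, among them 0610040J01Rik, Celf2, Dock8, Fchsd2, Rtn1, Stx16 and Zeb1. Several of these 10 were named only after their values were seen.

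**Figure D1:**
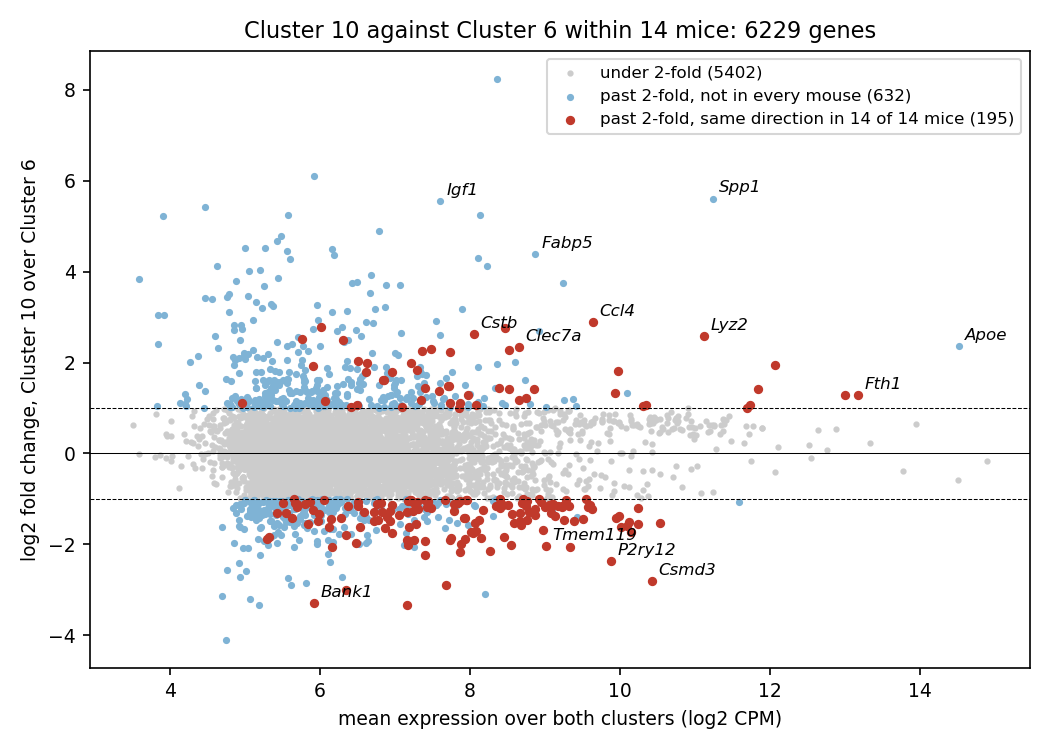
Difference between clusters for each of the 6229 genes compared (y axis, log2 fold change of Cluster 10 over Cluster 6 in the paired fit over 14 mice) against its mean level (x axis, log2 CPM). Red points are the 195 genes past 2-fold with the same direction in 14 of 14 mice, of which 144 lie below and 51 above 0.

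The genes that mark resting microglia were lower in Cluster 10. P2ry12 (ENSMUSG00000036353.13, chr3:59216272-59262871, minus strand), the ADP receptor that steers microglial processes, stood at 712, 1471 and 2352 CPM (lowest, median, highest) in Cluster 6 and 40.7, 255 and 856 CPM in Cluster 10. It was lower in Cluster 10 in 14 of 14 mice, with a log2 fold change of -2.36 ± 0.14 (SE, n = 14). Tmem119 (ENSMUSG00000054675.5, chr5:113793729-113800516, minus strand), a membrane protein confined to microglia in the brain, stood at 294, 740 and 1043 CPM against 0, 157 and 778 CPM, a log2 fold change of -2.03 ± 0.16. Siglech, a sialic acid-binding lectin, stood at 406, 857 and 1479 CPM against 87.6, 163 and 661 CPM, a log2 fold change of -2.07 ± 0.13. In both genes every mouse was lower in Cluster 10, although the ranges of the clusters overlapped between animals.

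Of the 22 homeostatic microglial genes on the list, all 22 could be compared: 0 were at least 2-fold higher and 12 at least 2-fold lower in Cluster 10, 9 of them in every mouse. Their median log2 fold change was -1.03, against -0.02 for all genes. Beside the genes above, the ADP receptor P2ry13 (-1.86 ± 0.15), the lysophosphatidylserine receptor Gpr34 (-1.16 ± 0.12), the P-selectin ligand Selplg (-1.62 ± 0.12), the fructose transporter Slc2a5 (-2.99 ± 0.24) and the small GTPase Rhob (-1.01 ± 0.12) were lower in 14 of 14 mice. The size of the difference varied between members. Cx3cr1 was lower in 13 mice (-1.06 ± 0.12) and Csf1r, the receptor on which microglial survival depends, in 13 (-0.87 ± 0.11). Fcrls, an Fc receptor-like marker of microglia, lay slightly higher in Cluster 10 in 9 mice and lower in 5 (0.27 ± 0.12). Summed, the 22 genes took 36497, 47020 and 71549 CPM in Cluster 6 and 20407, 24349 and 60556 CPM in Cluster 10, lower in 14 of 14 mice, with cystatin C (Cst3) the most abundant in both.

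Genes of the damage-associated state lay the other way. Of 22 on the list, all 22 were compared, 20 were at least 2-fold higher in Cluster 10, 7 of them in every mouse, and 0 were lower, with a median log2 fold change of 2.36. With 10 and 50 CPM added to every level 17 and 14 passed. Together they took 9566, 16853 and 53021 CPM in Cluster 6 and 22279, 64955 and 128617 CPM in Cluster 10, higher in 14 of 14 mice. Apoe (ENSMUSG00000002985.16, chr7:19696109-19699188, minus strand), the lipoprotein that carries cholesterol between cells, made the largest share, at 543, 4262 and 30449 CPM in Cluster 6 and 933, 29925 and 80285 CPM in Cluster 10. It was higher in 13 of 14 mice (2.37 ± 0.20). The exception was the cKO replicate 2 at 1 d, with 2908 CPM in Cluster 6 and 933 CPM in Cluster 10.

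The 7 members higher in every mouse were Clec7a, the β-glucan receptor dectin-1 (2.34 ± 0.16), the receptor tyrosine kinase Axl (1.99 ± 0.17), the tetraspanins Cd9 (1.04 ± 0.11) and Cd63 (1.81 ± 0.13), the cathepsins Ctsb (1.41 ± 0.13) and Ctsd (1.28 ± 0.13), and Tyrobp, the signalling adaptor of TREM2 (1.00 ± 0.12). Tyrobp stood at 1206, 1835 and 4378 CPM against 2118, 3539 and 8029 CPM and lies at the 2-fold threshold: it passed in 11 of 25 other settings, Cd9 in 18 and Cd68, a lysosomal membrane protein, in 23. Trem2 itself, the lipid receptor at the head of this state, differed less, with 758, 1117 and 1843 CPM in Cluster 6 and 778, 1564 and 2512 CPM in Cluster 10 (0.48 ± 0.11, higher in 12 mice). Spp1, osteopontin, a secreted phosphoprotein, went from 0, 37.6 and 1786 CPM to 0, 2963 and 12064 CPM and was higher in 13 mice. The remaining mouse, the uninjured WT replicate 2, had 0 UMIs of it in both clusters. The lists of microglial states were chosen with earlier results of these data known, and the count of higher members is a description of what the clustering separated.

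**Figure D2:**
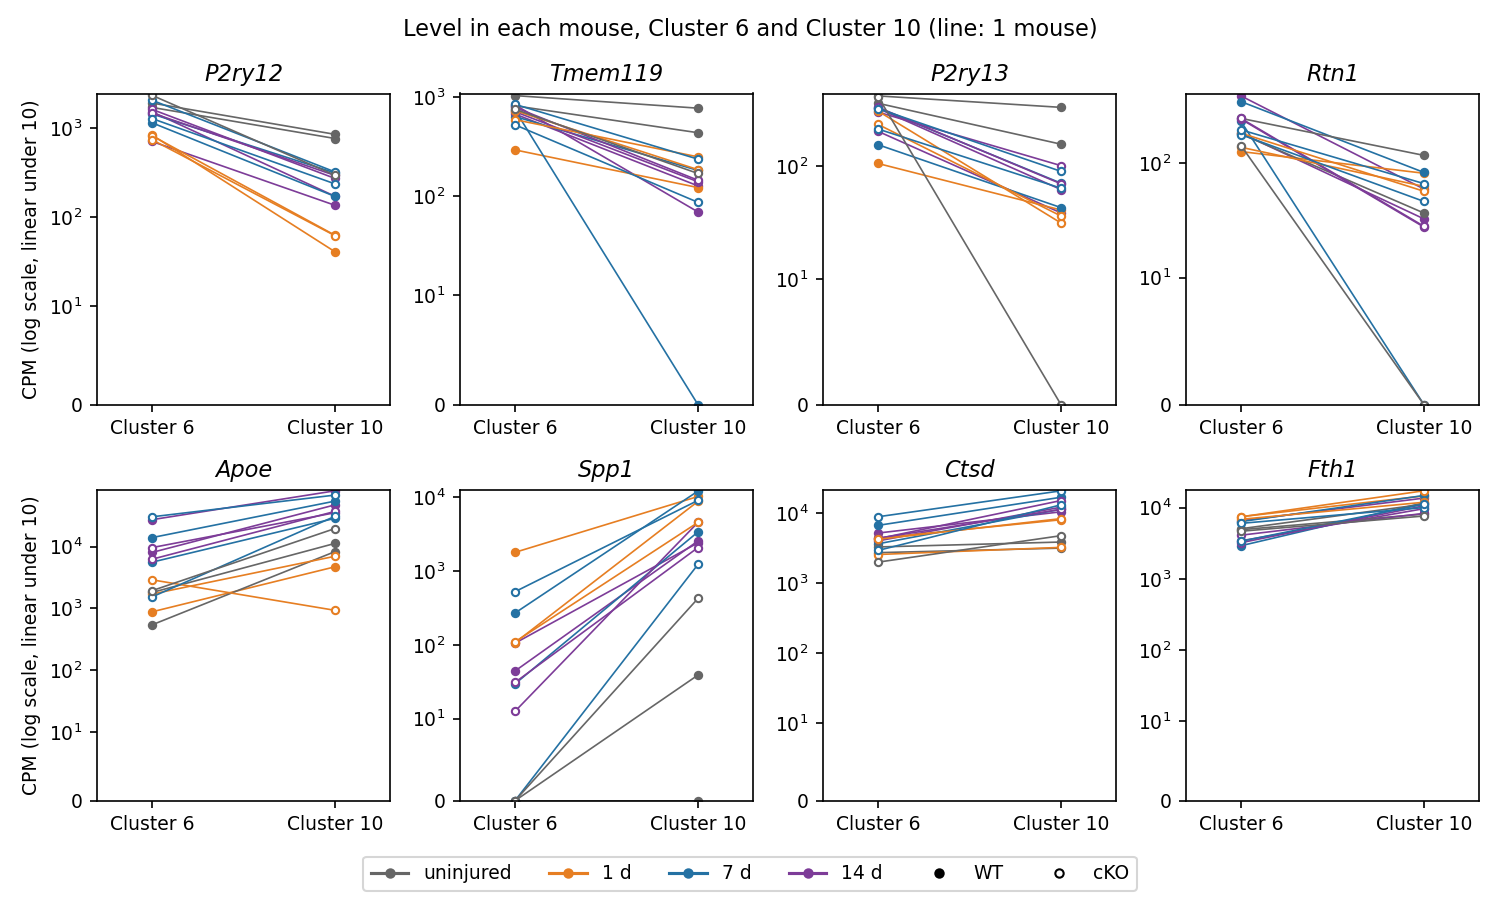
Level of 8 genes in Cluster 6 and Cluster 10 of each of the 14 mice (y axis, CPM on a log scale that is linear under 10), a line joining the clusters of 1 mouse, coloured by time point, with filled points for WT and open points for cKO. P2ry12, Tmem119, P2ry13 and Rtn1 are lower in Cluster 10 on every line, Ctsd and Fth1 higher on every line, and Apoe higher on 13 of 14.

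Genes of lipid handling were mostly higher in Cluster 10. Of 17 genes compared on that list, 14 were at least 2-fold higher in Cluster 10 and 0 lower, with a median log2 fold change of 2.82, although none of the 14 had that direction in every mouse. Lpl, lipoprotein lipase, which frees fatty acids from lipoproteins, stood at 0, 62.3 and 441 CPM in Cluster 6 and 0, 915 and 2281 CPM in Cluster 10, higher in 12 mice and lower in 1 (3.74 ± 0.19). Fabp5, a carrier of fatty acids inside the cell, stood at 8.62, 31.2 and 143 CPM against 0, 604 and 2182 CPM, higher in 13 mice and lower in 1 (4.39 ± 0.22). Both had 0 UMIs in Cluster 10 of at least 1 uninjured mouse and were present in Cluster 10 of every injured mouse. Npc2, which moves cholesterol out of the lysosome, was less than 2-fold higher (0.73 ± 0.12, 13 mice). The list depends on how low counts are treated, with 8 and 6 genes past 2-fold and medians of 0.97 and 0.62 with 10 and 50 CPM added, and its median was 1.99 without the 4 libraries that share barcodes.

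The lysosome's own genes were shifted less. Of 34 lysosomal genes compared, 8 were at least 2-fold higher in Cluster 10 and 0 lower, with a median log2 fold change of 0.69 (4 and 3 higher with 10 and 50 CPM added). Among the 8 were Ctsb, Ctsd, Cd63, Cd68, Lipa, Gusb and Pld3, a set of proteases, lipid- and sugar-cleaving enzymes and membrane proteins. Ctsd, cathepsin D, an aspartic protease (ENSMUSG00000007891.16, chr7:142375911-142388038, minus strand), stood at 2005, 4150 and 8946 CPM in Cluster 6 and 3183, 10972 and 21016 CPM in Cluster 10. Ctss, cathepsin S, the lysosomal gene with the most UMIs in Cluster 6, did not differ to that extent: it stood at a median of 5700 against 5432 CPM, higher in 5 mice and lower in 9. All 16 subunits of the proton pump that acidifies lysosomes, the V-ATPase, had a log2 fold change above 0 (median 0.83), and 6 passed 2-fold: Atp6v0c, Atp6v0d2, Atp6v1a, Atp6v1c1, Atp6v1f and Atp6v1g1. That count was 3 in DESeq2 and 1 and 0 with 10 and 50 CPM added. In the uninjured mice the medians of the lysosomal and V-ATPase lists were -0.15 and -0.30, against -0.47 for all genes, and the summed V-ATPase genes were higher in Cluster 10 in 2 of the 3. Atp6v1g1 was higher in every mouse (1.10 ± 0.12), from a median of 151 to 262 CPM. The summed lysosomal genes were higher in Cluster 10 in 12 of 14 mice and the summed V-ATPase genes in 13.

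Many lysosomal genes are switched on together by the factors TFEB and TFE3, which bind the letters TCACGTGA, a palindrome that reads the same on both strands and contains the shorter CACGTG. The 300-base promoter windows of RefSeq (GRCm38.p6, 250 bases before to 50 after a start) were searched for these letters on both strands. They occur in 0.974% of all 32851 promoters, in 2.21% of those of the genes compared, in 3 of 31 promoters of lysosomal genes (9.68%) and in 3 of 13 promoters of V-ATPase genes (23.1%). Among genes higher in Cluster 10 in every mouse the share was 1.82% (1 of 55 promoters), and among those lower in every mouse 1.90% (3 of 158). Over all genes past 2-fold it was 3.00% (12 of 400) for the higher and 1.08% (5 of 461) for the lower. The 6 windows are shown because they belong to the genes of both lists that hold the motif. The genes were picked for their sequence after values were seen. Capitals mark TCACGTGA or CACGTG. Their log2 fold changes were 0.79 for Ctsa, a serine carboxypeptidase, 1.28 for Ctsd, -0.75 for Cd164, a sialomucin, 1.23 for Atp6v1a, 0.57 for Atp6v0d1 and 0.97 for Atp6v0e. Of the 6, 5 were thus higher and Cd164 lower in Cluster 10. A match of letters is not a bound site.
Ctsa, chr2:164833523-164833822, plus strand: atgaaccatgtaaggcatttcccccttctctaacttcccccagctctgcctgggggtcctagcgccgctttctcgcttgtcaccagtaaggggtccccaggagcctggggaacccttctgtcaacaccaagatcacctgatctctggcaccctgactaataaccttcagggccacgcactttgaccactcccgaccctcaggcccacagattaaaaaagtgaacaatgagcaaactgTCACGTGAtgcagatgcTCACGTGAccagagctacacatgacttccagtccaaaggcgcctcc
Ctsd, chr7:142387778-142388077, minus strand: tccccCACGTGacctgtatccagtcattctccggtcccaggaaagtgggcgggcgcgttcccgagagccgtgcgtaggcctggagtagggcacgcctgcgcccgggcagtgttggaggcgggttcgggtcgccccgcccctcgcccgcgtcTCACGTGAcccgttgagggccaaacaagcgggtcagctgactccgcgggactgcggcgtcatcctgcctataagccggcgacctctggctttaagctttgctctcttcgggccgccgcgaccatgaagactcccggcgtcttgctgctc
Cd164, chr10:41519250-41519549, plus strand: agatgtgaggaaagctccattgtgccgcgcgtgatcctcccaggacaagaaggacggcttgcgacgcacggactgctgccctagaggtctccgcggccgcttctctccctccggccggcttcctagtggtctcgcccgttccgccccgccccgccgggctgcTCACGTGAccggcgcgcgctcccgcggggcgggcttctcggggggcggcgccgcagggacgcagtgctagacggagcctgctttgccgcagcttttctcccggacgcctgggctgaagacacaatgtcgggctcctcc
Atp6v1a, chr16:44139210-44139509, minus strand: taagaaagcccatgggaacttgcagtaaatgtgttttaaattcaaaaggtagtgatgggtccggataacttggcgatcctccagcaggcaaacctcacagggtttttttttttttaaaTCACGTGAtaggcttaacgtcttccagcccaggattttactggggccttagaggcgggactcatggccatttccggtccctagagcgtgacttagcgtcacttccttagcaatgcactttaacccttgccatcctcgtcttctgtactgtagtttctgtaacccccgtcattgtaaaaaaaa
Atp6v0d1, chr8:105566015-105566314, minus strand: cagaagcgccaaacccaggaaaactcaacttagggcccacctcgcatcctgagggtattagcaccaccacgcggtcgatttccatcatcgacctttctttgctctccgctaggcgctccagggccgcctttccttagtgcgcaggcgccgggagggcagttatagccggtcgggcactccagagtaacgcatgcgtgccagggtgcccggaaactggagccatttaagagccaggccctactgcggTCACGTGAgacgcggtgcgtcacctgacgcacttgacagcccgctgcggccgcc
Atp6v0e, chr17:26676146-26676445, plus strand: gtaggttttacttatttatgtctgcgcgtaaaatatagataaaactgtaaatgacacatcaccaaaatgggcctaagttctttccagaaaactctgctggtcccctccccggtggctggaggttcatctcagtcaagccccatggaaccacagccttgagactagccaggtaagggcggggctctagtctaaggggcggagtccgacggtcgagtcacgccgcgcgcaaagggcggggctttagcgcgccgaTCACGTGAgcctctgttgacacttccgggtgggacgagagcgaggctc

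A further motif, GAGGAAGT, a form of the site read by ETS factors such as PU.1, the master regulator of myeloid cells, was found in 3.20% of all promoters and 3.81% of those of the genes compared. Its share was 1.82% (1 of 55 promoters) among genes higher in every mouse and 8.23% (13 of 158) among genes lower in every mouse. Over all genes past 2-fold the shares were closer, 5.00% (20 of 400) for the higher and 6.29% (29 of 461) for the lower, both above that of the genes compared. No test was made of these shares.

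Chemokine and cytokine genes were mostly higher in Cluster 10. Of 19 chemokine and cytokine genes compared, 13 were at least 2-fold higher and 1, Il18, lower, with a median log2 fold change of 1.82 (9 and 6 higher with 10 and 50 CPM added). Summed, they stood at 746, 1282 and 4328 CPM in Cluster 6 and 2334, 3809 and 15576 CPM in Cluster 10, higher in 14 of 14 mice. Ccl4 (ENSMUSG00000018930.3, chr11:83662584-83664683, plus strand) and Ccl3, chemokines that draw in macrophages and T cells, were higher in every mouse. Ccl4 stood at 0, 140 and 504 CPM against 117, 771 and 9931 CPM (2.90 ± 0.24), and Ccl3 at 9.45, 74.5 and 378 CPM against 195, 544 and 2631 CPM (2.75 ± 0.17).

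Of 17 chemokine and cytokine receptors compared, 4 were at least 2-fold lower in Cluster 10 (among them Cx3cr1, Il6ra and the interleukin-10 receptor chain Il10ra, the last in every mouse at -1.21 ± 0.14) and 1, Cxcr4, the CXCL12 receptor, was higher. Of the 17, 7 had a log2 fold change above 0 and 10 below, with a median of -0.13. Their sum, of which Cx3cr1 is the largest part, was lower in Cluster 10 in 14 of 14 mice, from a median of 10398 to 5092 CPM. Tgfbr1, the type I receptor of TGF-β, on which microglial identity depends, stood at a median of 1591 against 749 CPM (-0.81 ± 0.12, lower in 13 mice). None of the 12 TGF-β pathway genes compared passed 2-fold, but 10 had a log2 fold change below 0, their median was -0.29, and their sum was lower in 14 of 14 mice.

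Phagocytic and scavenger receptors were divided. Of 22 compared, 6 were at least 2-fold higher (Tyrobp, Axl, Cd36, Msr1, Cd68 and Clec7a) and 1 lower, with a median of 0.15 that turned to -0.25 and -0.16 with 10 and 50 CPM added. The median of all genes moved as well, from -0.02 to -0.31 and -0.13. The lower gene was Mertk, the receptor tyrosine kinase by which resting microglia clear apoptotic cells: 483, 918 and 1263 CPM in Cluster 6 and 127, 451 and 700 CPM in Cluster 10, lower in 14 of 14 mice (-1.01 ± 0.11). Its relative Axl went the other way in the same 14 mice, from a median of 43.4 to 192 CPM. The complement genes were close to level. C1qa, C1qb and C1qc, the chains of the initiator C1q, had log2 fold changes of 0.08 to 0.19, while of 7 genes compared 1 was at least 2-fold higher (C3) and 1 lower. Of 10 genes of antigen presentation, 2 were higher, Cd74 and H2-Ab1. Cd74, the invariant chain of MHC class II, stood at 12.1, 48.0 and 128 CPM against 41.2, 146 and 625 CPM (1.90 ± 0.17, 13 mice). Of 12 interferon response genes, 1 was higher (Lgals3bp) and 2 lower (Ifit2, Ifit3), with a median of 0.03 that is below 0 under DESeq2's scaling (-0.07) and without the 4 libraries that share barcodes (-0.46, 1 of 16 higher and 5 lower). The medians of all genes in these settings were -0.16 and -0.02. In the uninjured mice 4 of the 12 were at least 2-fold higher and 3 lower (median 0.25, against -0.47 for all genes), and the summed list was 1.98 to 2.39 times Cluster 6 in all 3. At 1 d 8 of the 12 were at least 2-fold higher in Cluster 10 and 0 lower (median 1.06), and at 14 d 1 was higher and 3 lower (median -0.22). The summed list at 1 d was higher in Cluster 10 only in the cKO replicate 2, 2.57 times Cluster 6, and lower in the other 2 mice (0.970 and 0.788 times).

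Glycolytic genes were mostly higher in Cluster 10. Of 17 glycolytic genes compared, 11 were at least 2-fold higher in Cluster 10 and 0 lower (median 1.31; 7 and 3 higher with 10 and 50 CPM added), and their sum was higher in 14 of 14 mice, from a median of 2456 to 4442 CPM. Gapdh (1.33 ± 0.12), phosphoglycerate kinase Pgk1 (1.79 ± 0.17), pyruvate kinase Pkm (1.42 ± 0.13) and lactate dehydrogenase Ldha (1.36 ± 0.13) were higher in every mouse. Hexokinase 2 (Hk2), the glycolytic gene with the most UMIs in Cluster 6, was instead lower in 12 mice, at a median of 433 against 295 CPM. All 28 nuclear genes of oxidative phosphorylation had a log2 fold change above 0 (median 0.88) and 6 passed 2-fold, but 2 in DESeq2, 2 with 10 CPM and 0 with 50 CPM added. The 13 mitochondrially encoded mRNAs were also all above 0 (median 0.49, and 0.05 in replicate 1 alone), though 0 passed 2-fold and their sum was higher in 10 mice and lower in 4, which are the 4 libraries that share barcodes (0.797 to 0.894 times Cluster 6).

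Both ferritin chains were higher in Cluster 10, and the ferritin heavy chain separated the clusters without overlap. Fth1 (ENSMUSG00000024661.7, chr19:9980598-9985098, plus strand), which encodes that chain, stood at 2925, 4989 and 7479 CPM in Cluster 6 and 7639, 11192 and 17276 CPM in Cluster 10 (1.29 ± 0.12). Ftl1, the light chain, stood at 638, 1276 and 3487 CPM against 1556, 6543 and 11244 CPM (1.94 ± 0.13). Both were higher in 14 of 14 mice. Hmox1, heme oxygenase, which frees iron from heme, was higher in 12 (2.65 ± 0.24), and 5 of 10 iron and heme genes passed 2-fold upwards and 0 downwards (3 with 10 or 50 CPM added). The list's median was 0.93 over all mice and -0.34 in the uninjured ones, where that of all genes was -0.47.

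Of 20 cytoskeletal genes compared 8 were at least 2-fold higher and 0 lower (median 0.76), and 6 and 5 with 10 and 50 CPM added. Those in every mouse were the actin-sequestering thymosin Tmsb10 (1.43 ± 0.12), the actin-capping protein Capg (2.29 ± 0.14) and the membrane-binding annexin Anxa5 (2.26 ± 0.14). Rhoc, a GTPase of cell motility, stood at 0, 19.96 and 50.2 CPM in Cluster 6 and 62.5, 122 and 214 CPM in Cluster 10, without overlap (2.49 ± 0.19). All 34 ribosomal protein genes lay above 0, with a median of 0.63 and 2 past 2-fold (Rpl41 and Rps2, both in every mouse), but 0 with 10 or 50 CPM added or in replicate 1 alone. Of 7 nuclear long non-coding RNAs compared 0 passed 2-fold, 3 lay above 0 and 4 below, with a median of -0.07 that was 0.10 without the 4 libraries that share barcodes. The most abundant, Malat1, which makes up most of their sum, had a median of 14028 against 10726 CPM (-0.38 ± 0.11, lower in 14 mice).

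Transcription factors were divided, while their sum was lower in Cluster 10. Of 23 transcription factors of microglia and macrophages compared, 2 were at least 2-fold higher (Hif1a and Bhlhe40) and 2 lower (Sall1 and Maf), against 6.6% and 6.68% of all genes, with 9 above 0, 14 below and a median of -0.17. With 50 CPM added 0 were higher and 2 lower, and their median was -0.22, against -0.13 for all genes. With 10 CPM added it was -0.29, against -0.31 for all genes. The summed CPM of the factors was lower in Cluster 10 in 14 of 14 mice, from a median of 6325 to 4745 CPM. Maf, which takes part in macrophage self-renewal and identity, was lower in every mouse, from a median of 649 to 262 CPM (-1.12 ± 0.13). Mef2c, the factor with the most UMIs, was lower in 14 of 14 mice but under 2-fold, from 1258 to 598 CPM (-0.72 ± 0.11). Of 14 growth factor genes compared, 5 were higher (Igf1, Pdgfa, Spp1, Mmp12 and Fn1), 0 lower, and Pdgfa, a mitogen of oligodendrocyte precursors, was higher in every mouse, from a median of 30.1 to 117 CPM (2.04 ± 0.18). Of 11 cell cycle genes, 1 was higher (Pcna) and 1 lower (Ccnd3), with a median of 0.20 that turned to -0.24 with 10 CPM added and was -0.96 at 1 d. All genes had medians of -0.31 and -0.06 there. Immediate early and stress genes, which dissociation (here with the transcription blocker actinomycin D) can raise, had 4 of 22 past 2-fold, all higher (Ier3, Atf3, Nfkbiz and Rgs1), and a median of 0.27 that was 0.08 under DESeq2's scaling and turned to -0.10 with 10 CPM added (1 higher, 2 lower). Those settings gave all genes medians of -0.16 and -0.31. At 1 d the median of the stress genes was -0.48, with 2 higher and 5 lower. Atf3 was higher in every mouse, from a median of 59.2 to 329 CPM (2.23 ± 0.15).

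Without the 4 libraries that share barcodes the lists stood as follows. Homeostatic genes had 11 of 22 past 2-fold lower (median -1.03), damage-associated genes 20 of 22 higher (2.49), lipid genes 15 of 20 higher, lysosomal genes 9 of 34 higher (0.63), V-ATPase genes 7 of 16 higher (0.82), and chemokines and cytokines 15 of 22 higher and 1 lower (1.96). Their receptors had 2 of 18 higher and 5 lower (-0.19), phagocytic receptors 8 of 25 higher and 1 lower (0.38), and TGF-β pathway genes 0 of 13 higher and 1 lower (-0.28). For glycolysis 12 of 19 were higher (1.28), for nuclear genes of oxidative phosphorylation 10 of 28 (0.96), for mitochondrially encoded mRNAs 0 of 13 (0.67), for ribosomal proteins 3 of 34 (0.75), for iron and heme 4 of 10 (0.94), for the cytoskeleton 8 of 21 (0.76) and for growth factors 7 of 17 (0.85). Of the transcription factors 2 of 23 were higher and 3 lower (-0.23), of complement genes 2 of 8 higher and 0 lower (0.43), of antigen presentation genes 2 of 12 higher (0.37), of cell cycle genes 1 of 14 higher and 1 lower (0.27) and of immediate early and stress genes 4 of 26 higher and 2 lower (0.20). Of the marker lists, those of microglia had 7 of 10 lower (-1.38), of monocytes and macrophages 6 of 6 higher (2.56), of border-associated macrophages 5 of 6 higher (2.43), of astrocytes 7 of 9 higher and 1 lower (1.08), of oligodendrocytes 1 of 10 higher (0.35), of neurons 1 of 9 lower (0.40) and of red blood cells 4 of 4 higher (4.28). Those of neutrophils and dendritic cells turned from medians of -0.62 and -0.56, over 1 gene each, to 0.89 and 0.30 over 3 each. None of the 67 genes whose sizes were followed under the alternatives changed direction or side of 2-fold without these libraries.

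Among the 51 genes higher in every mouse, the 12 with the highest log2 fold change were Ccl4, Plaur, Ccl3, Cstb, Lyz2, Nes, Rhoc, Clec7a, Capg, Myo1e, Anxa5 and Atf3. Plaur, the urokinase receptor, stood at 0, 14.7 and 45.7 CPM in Cluster 6 and 36.6, 105 and 509 CPM in Cluster 10 (2.77 ± 0.24). Cstb, cystatin B, an inhibitor of cathepsins, stood at 26.9, 67.7 and 273 CPM against 117, 374 and 1000.4 CPM (2.62 ± 0.13). Lyz2 stood at 158, 410 and 1605 CPM against 299, 2210 and 8599 CPM (2.58 ± 0.16). All 3 were higher in Cluster 10 in each mouse while the ranges of the clusters overlapped. Nes, the intermediate filament nestin, was scarce in both (median 11.6 against 72.6 CPM), and Myo1e, an unconventional myosin of endocytosis, reached a median of 564 CPM in Cluster 10 against 106.

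The 12 lowest of the 144 were 8030442B05Rik, Bank1, Slc2a5, Gm10790, Csmd3, P2ry12, Rtn1, Fgd2, Agmo, Siglech, Cfap74 and Tmem119. Csmd3 (ENSMUSG00000022311.15, chr15:47580637-48792063, minus strand), a large transmembrane protein with CUB and sushi domains, was the most abundant, with 630, 2149 and 3544 CPM in Cluster 6 and 42.4, 206 and 1284 CPM in Cluster 10 (-2.80 ± 0.15). Rtn1, a reticulon of the endoplasmic reticulum, stood at 126, 189 and 386 CPM against 0, 51.4 and 117 CPM (-2.24 ± 0.17), its highest Cluster 10 value below its lowest Cluster 6 value. Bank1, a signalling scaffold best known from B cells, had 353 UMIs in Cluster 6 and 25 in Cluster 10 (-3.30 ± 0.28). Fgd2, an activator of the GTPase CDC42 (-2.17 ± 0.15), and Agmo, an alkylglycerol-cleaving enzyme (-2.15 ± 0.14), belonged to the same group. For the transcripts 8030442B05Rik and Gm10790 no role is given.

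The genes lower in every mouse were long. The span from start to end of a gene on the genome had a median of 31.5 kb over the genes compared, 8.98 kb over the 51 higher genes and 81.1 kb over the 144 lower ones. Of the lower genes 64 spanned over 100 kb (44.8%), against 17.6% of all genes and 2 of the higher ones. The median log2 fold change was 0.48 among genes of up to 10 kb, 0.13 from 10 to 30 kb, -0.19 from 30 to 100 kb, -0.40 from 100 to 300 kb and -0.46 beyond. Genes of long span are read more from unspliced nuclear RNA than short ones, and of the nuclear RNAs above Malat1 was lower in Cluster 10 in all mice while 3 of the 7 were not lower in the fit. Whether the share of nuclear RNA had a part in the differences was not tested.

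Ligands and receptors that the study examined between cell types were also compared. Cd44, a receptor of osteopontin and hyaluronan, was higher in Cluster 10 in 14 of 14 mice, from 0, 17.3 and 41.1 CPM to 36.6, 67.2 and 204 CPM (1.92 ± 0.21). The integrin subunits that also bind osteopontin were level or lower: Itgav -0.56 ± 0.13, Itgb1 0.08 ± 0.12 and Itgb5 -0.36 ± 0.12, the last lower in 14 of 14 mice. Itgam, a subunit of complement receptor 3, was lower in 14 mice (-0.50 ± 0.12), whereas its partner Itgb2 was higher in 11 (0.62 ± 0.12). F11r, a junctional adhesion molecule, was lower in every mouse, from a median of 375 to 174 CPM (-1.14 ± 0.14), as was Ptprm, a receptor phosphatase of cell contact, by less (-0.69 ± 0.13).

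Further ligands on that list lay higher in Cluster 10 but under 2-fold: the granulin precursor Grn (0.68 ± 0.12, 11 mice), prosaposin Psap (0.40 ± 0.12, 10 mice), App (0.49 ± 0.12, 12 mice) and cyclophilin Ppia (0.76 ± 0.11, 14 mice), with its receptor Bsg at 0.60 ± 0.12 (11 mice). Sort1, the sorting receptor of progranulin, was lower in 13 mice (-0.89 ± 0.14), and so was Itga6 (-0.45 ± 0.12). Cadm1, an adhesion molecule, changed sign in 3 of 25 other settings and Itgb1 in 4 of 24, so no direction is given for them. Il34, a ligand of CSF1R, had 2 UMIs in Cluster 6 and 3 in Cluster 10, too few for any comparison.

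Shares of single cells with a UMI were compared at matched depth. Cells with at least 500 UMIs were thinned to 500, leaving 903 cells of Cluster 6, 742 of Cluster 10 and 2248 neurons of Cluster 3 as cells that should lack these genes. P2ry12 was then seen in 45.1% of Cluster 6 cells, 13.9% of Cluster 10 cells and 0.712% of neurons. Before thinning the shares were 64.6%, 35.0% and 4.00%, at median depths of 775, 1120.5 and 1848.5 UMIs. Apoe was seen in 51.3%, 73.2% and 22.0% of thinned cells, Lyz2 in 23.7%, 43.0% and 0.979%, and Spp1 in 5.09%, 36.8% and 2.31%. These shares pool mice with unequal numbers of cells. The medians over 14 mice in Clusters 6 and 10 were 49.5% and 15.6% for P2ry12, 32.7% and 57.6% for Apoe, 14.5% and 36.7% for Lyz2 and 0.926% and 21.3% for Spp1. For P2ry12 and Lyz2 the shares of both clusters lay well above those of neurons. For Spp1 the share in Cluster 6 was 5.09% pooled and 0.926% as the median over mice, with a highest mouse of 23.3%, against 2.31% of neurons. What part free RNA had in it was not tested. Csmd3 was seen in 51.2% of Cluster 6 and 8.49% of Cluster 10 cells, but also in 24.4% of neurons, which express it.

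By time point, genes lower in Cluster 10 were most numerous in the uninjured mice, where the summed UMIs of Cluster 10 were fewest. In the uninjured mice 509 genes (8.17%) were at least 2-fold higher in Cluster 10 and 2008 (32.2%) lower. At 1 d there were 570 higher (9.15%) and 933 lower (15%), at 7 d 682 (10.9%) and 572 (9.18%), and at 14 d 509 (8.17%) and 439 (7.05%). Over all genes the median log2 fold change was -0.47 without injury and -0.06, -0.02 and 0.01 at 1, 7 and 14 d, and the spread over genes narrowed from an SD of 1.98 to 1.10, 0.93 and 0.86. The summed UMIs of Cluster 10 grew in the same order, from 76595 to 250614, 718512 and 2732801. The part of depth in these counts was not tested.

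Against those medians, homeostatic genes were lower at each time point, with list medians of -0.95 without injury and -1.24, -0.93 and -1.004 at 1, 7 and 14 d. P2ry12 in Cluster 10 stood at 856, 768 and 297 CPM in the uninjured mice, at 40.7, 62.5 and 61.8 CPM at 1 d, at 171, 315, 237 and 323 CPM at 7 d and at 136, 172, 273 and 295 CPM at 14 d. In Cluster 6 of the same mice it stood at 1927, 1720 and 2352 CPM, then 840, 824 and 744 CPM, then 1155, 1453, 1289 and 2073 CPM, and lastly 712, 1534, 1634 and 1489 CPM. Both clusters thus had less of it at 1 d than in the uninjured mice, and in each mouse Cluster 10 had less than Cluster 6. The difference itself was not called between injured and uninjured mice (log2 -1.02, edgeR adjusted p = 0.428) or over 1, 7 and 14 d (edgeR adjusted p = 0.680), and 1 d against uninjured mice alone was not tested. Damage-associated genes had list medians of 1.13, 1.05, 2.59 and 2.44 at these time points, with 12, 13, 20 and 20 of 22 at least 2-fold higher. For lipid genes the medians were 0.10, 1.28, 2.56 and 2.35. Chemokines and cytokines were already apart in uninjured mice (2.10) and remained so (1.71, 1.91 and 1.497).

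**Figure D3:**
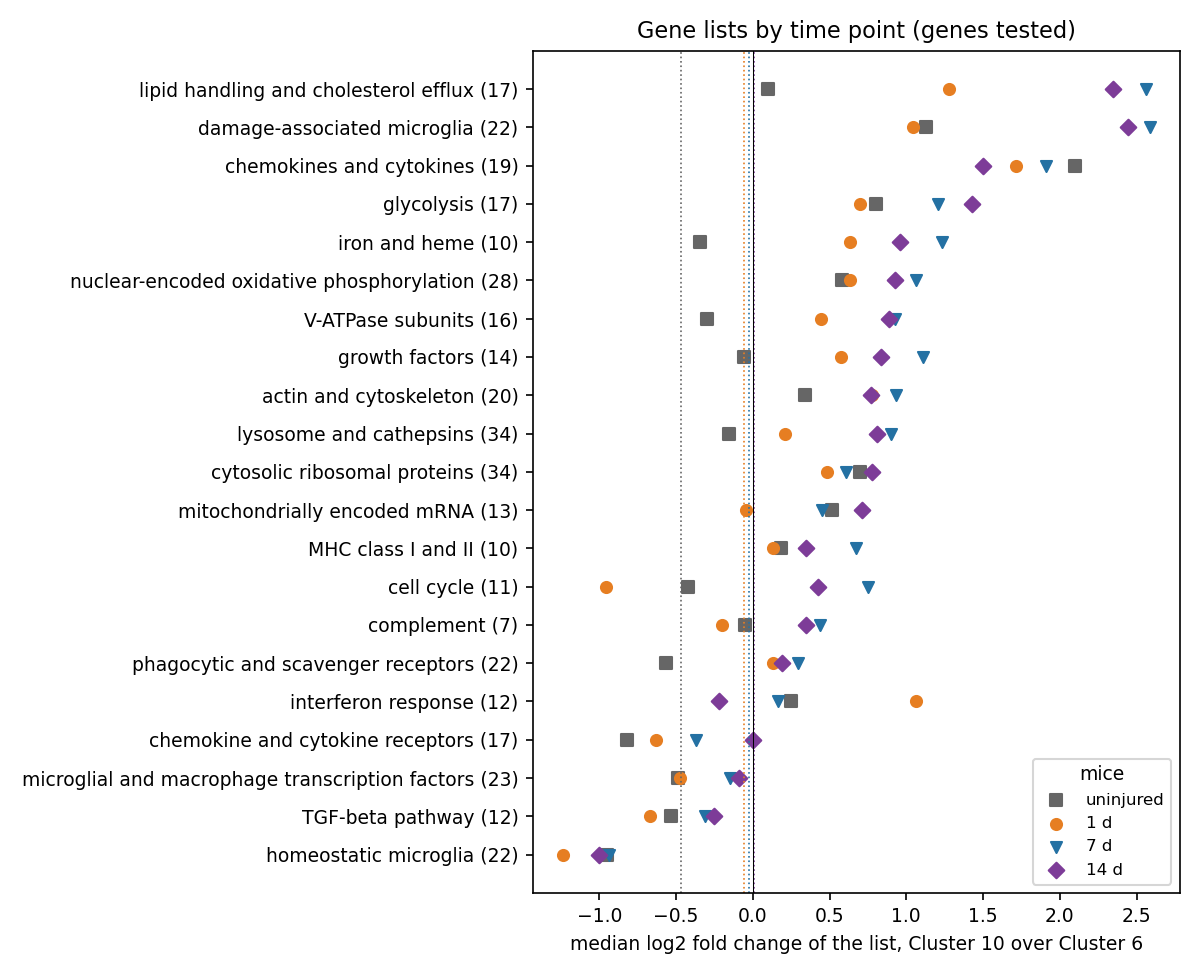
Median log2 fold change of Cluster 10 over Cluster 6 for each gene list (x axis), in uninjured mice and at 1, 7 and 14 d (symbols), with the number of genes compared in parentheses and dotted lines at the medians of all genes. Homeostatic genes lie below the median of all genes at every time point, and damage-associated genes lie at 1.13, 1.05, 2.59 and 2.44.

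Whether the difference between clusters changed with time after injury was tested on the cells as the authors assigned them. The clusters come from these same expression values, after the authors' correction for batch and sample, and each sample belongs to 1 time point and genotype. Which cells fell into each cluster may thus itself vary with time, injury or genotype, and the part of this in the calls below was not tested. The edgeR test over 1, 7 and 14 d called 46 of 6229 genes (0.738%) at an adjusted p of 0.05. From 1 d to 14 d the difference rose for 29 of them and fell for 17. DESeq2 called 5. Unadjusted, 472 genes had p under 0.05 in edgeR. Refitted without the cKO replicate 2 at 1 d the test called 21 genes, without the cKO replicate 1 at 7 d 85 and without the uninjured WT replicate 2 71. With the replicate block, a term that lets the paired difference vary with the replicate number of the sample titles, the count was 60. Without the 4 libraries that share barcodes only 1 mouse was left at 1 d, so the test compares 14 d with 7 d, and it called 29. If the cell names instead of the titles set the conditions, it called 25.

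Damage-associated genes were among the calls: 5 of the 22 on that list (Tyrobp, Spp1, Lpl, Clec7a and Ank), and in each the difference was larger at 14 d than at 1 d. If the cell names set the conditions, only Lpl of the 5 kept its call (edgeR adjusted p = 0.00135). Clec7a then had an edgeR adjusted p of 0.462, and Spp1, Tyrobp and Ank of 0.9997. In DESeq2 only Tyrobp of the 5 was called (adjusted p = 0.0265). For Lpl the log2 ratio of Cluster 10 to Cluster 6 was 2.34, 2.85 and 1.92 in the mice at 1 d, then 3.15, 3.77, 2.94 and 4.11 at 7 d, followed by 3.77, 4.45, 4.39 and 3.41 at 14 d. All 8 later mice lay above the 3 at 1 d, and the difference rose by a log2 of 1.99 from 1 d to 14 d (edgeR adjusted p = 0.000361, range 1.73e-06 to 1 over 24 alternatives). The call of Lpl was lost in DESeq2 (adjusted p = 0.729) and without the 4 libraries that share barcodes, where 14 d is compared with 7 d. Tyrobp had ratios of 0.10, 0.50 and 0.02 at 1 d, 0.78 to 1.47 in the mice at 7 d and 0.87 to 1.39 in those at 14 d, again without overlap with 1 d. The rise of 1.13 passed narrowly (edgeR adjusted p = 0.0473, 4 of 4 mice at 14 d above all at 1 d), and 11 of 24 alternatives kept it, over a range of 0.000777 to 1.00. It was lost without any 1 of the 7 mice at 1 d and 14 d or without the cKO replicate 2 at 7 d, where p reached 0.308.

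Clec7a rose by 1.51 (edgeR adjusted p = 0.0429, 4 of 4 mice at 14 d above all at 1 d, range 0.000338 to 1), and lost the call without the cKO replicate 2 at 1 d or at 7 d or the WT replicate 1 at 1 d, where p reached 0.834. Spp1 had ratios of 2.51, 6.23 and 5.25 at 1 d and 4.39, 5.56, 7.66 and 5.67 at 14 d, which overlap. Its rise of 2.11 (edgeR adjusted p = 0.00688, 3 of 4 mice at 14 d above the mean at 1 d, range 1.34e-12 to 1) was lost without the WT replicate 1 at 1 d, where p was 0.982. The call was also lost with at least 30 cells (edgeR adjusted p = 0.0867) and without the 4 libraries that share barcodes (0.0826). Ank, a transporter of pyrophosphate named after its values were seen, rose by 2.08 (edgeR adjusted p = 0.0326, 4 of 4 mice, range 0.000227 to 1.00), but not without the cKO replicate 2 at 1 d or at 7 d (p up to 0.874).

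**Figure D4:**
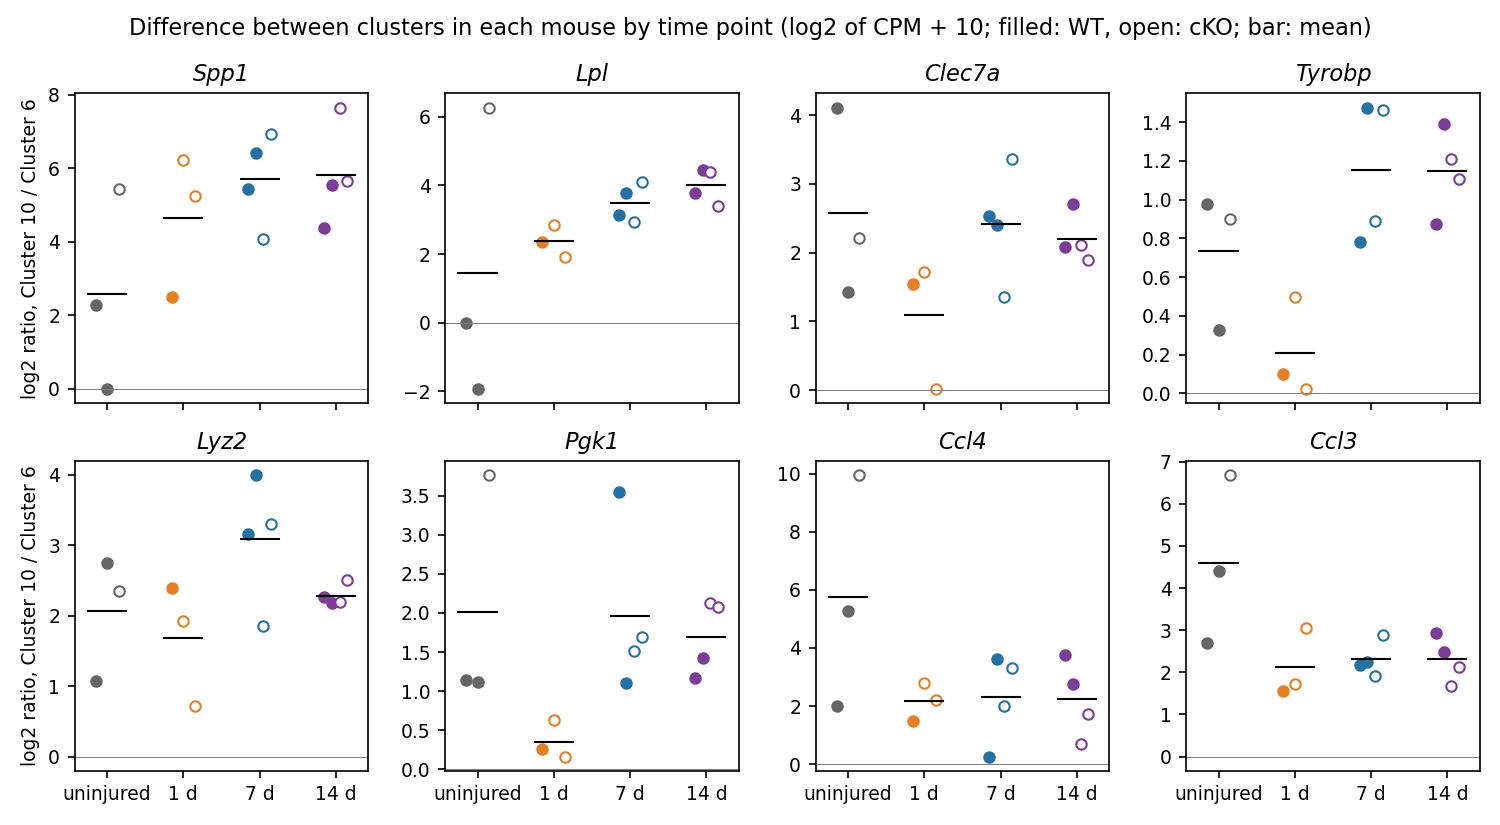
Log2 ratio of Cluster 10 to Cluster 6 (y axis, from CPM with 10 added) for 8 genes in each mouse by time point (x axis), filled for WT and open for cKO, with bars at the means. For Lpl, Tyrobp and Pgk1 the 8 mice at 7 and 14 d lie above the 3 at 1 d, and for Ccl4 and Ccl3 the uninjured cKO replicate 2 lies above every other mouse.

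Fn1 and Lyz2 of the macrophage markers and Pgk1 alone of the glycolytic genes were also called over time. Fn1, fibronectin, had 15, 14 and 69 UMIs in Cluster 6 and 24, 40 and 37 in Cluster 10 at 1 d, and Cluster 10 levels of 142, 561, 417 and 163 CPM at 14 d against 19.4, 14.2, 4.71 and 53.6 CPM in Cluster 6. The difference rose by 2.96 from 1 d to 14 d (edgeR adjusted p = 2.27e-08, 4 of 4 mice above the mean at 1 d, range 3.59e-18 to 1 over 24 alternatives, of which 22 kept the call). Lyz2 rose by 0.75 (edgeR adjusted p = 0.0371, 4 of 4 mice at 14 d above the mean at 1 d, range 9.32e-09 to 1.00). Its mean log2 ratio was 1.68 at 1 d, highest at 7 d (3.08) and 2.29 at 14 d. The lowest p came from animal numbers of 10000 and above, where only 14 d and 7 d are compared. With the conditions of the cell names (edgeR adjusted p = 0.9997) and in DESeq2 (adjusted p = 0.996) Lyz2 was not called. Pgk1 had ratios of 0.26, 0.63 and 0.16 at 1 d and 1.16, 1.43, 2.13 and 2.07 at 14 d, a rise of 1.89 (edgeR adjusted p = 0.0219, 4 of 4 mice above all at 1 d, range 0.00507 to 0.968). No other gene of the glycolysis list was called by edgeR. Lyz2 lost its call without the cKO replicates 1 or 2 at 1 d, the cKO or WT replicate 2 at 7 d or the WT replicate 1 at 14 d (p up to 0.351). Pgk1 lost it without the cKO replicate 2 at 1 d or the cKO replicates 1 or 2 at 14 d (p up to 0.565), and Fn1 kept it without any 1 mouse. DESeq2, however, called neither Fn1 nor Pgk1 (adjusted p of Pgk1 0.542). Pgk1 was also lost without the 4 libraries that share barcodes, where 14 d is compared with 7 d (edgeR adjusted p = 0.968).

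In edgeR, the chemokine and cytokine genes called over time split in direction. DESeq2 called none of those named here (adjusted p = 0.543 for Mif and 0.330 for Cxcl14), nor the interferon genes Isg15 (0.327) and Ifit3. The monocyte chemokine Ccl2, named after its values were seen, fell (log2 difference of 14 d from 1 d -3.37, edgeR adjusted p = 1.25e-05, 4 of 4 mice at 14 d below all at 1 d, range 7.94e-11 to 1), a call lost without the cKO replicate 2 at 1 d, where p was 0.405. Ccl12, a close relative, stood at 2101, 656 and 1502 CPM in Cluster 6 and 1426, 719 and 2535 CPM in Cluster 10 at 1 d, and at most 157 CPM in either cluster of any mouse at 14 d. Its difference fell (log2 -1.40, edgeR adjusted p = 0.0138, 3 of 4 mice at 14 d below the mean at 1 d, range 1.94e-07 to 1). Cxcl14 rose by 3.33 (edgeR adjusted p = 0.0371) and Mif, macrophage migration inhibitory factor, by 1.48 (edgeR adjusted p = 0.0226), in 4 of 4 mice each and over ranges of 0.0172 to 0.959 and 0.00196 to 1. Both calls were lost with a term for the 4 libraries that share barcodes (edgeR adjusted p = 0.0710 and 0.0795), which include the replicate 1 mice at 1 d. They were lost as well with the conditions of the cell names (edgeR adjusted p = 0.234 and 0.462). Ccl5 fell (log2 -1.495, edgeR adjusted p = 0.00382, 3 of 4 mice below the mean at 1 d, range 4.05e-05 to 1). Cxcl14, Mif and Ccl5 were likewise named after their values were seen. Of the interferon genes Ifit3 fell (log2 -4.90, edgeR adjusted p = 0.0355, 2 of 4 mice below the mean at 1 d, range 0.00203 to 1), on 10 UMIs in Cluster 10 of 1 mouse at 1 d. Isg15, a ubiquitin-like protein induced by interferon, fell as well (log2 -3.69, edgeR adjusted p = 0.0219, 4 of 4 mice at 14 d below all at 1 d, range 0.00595 to 0.460), on 100 UMIs in Cluster 6 and 40 in Cluster 10 over all mice, and not without the 4 libraries that share barcodes, where 14 d is compared with 7 d (edgeR adjusted p = 0.180). Single mice ended these calls: for Ccl12 the WT replicate 2 at 7 d or the cKO replicate 1 at 14 d (p up to 0.998), for Cxcl14 the cKO replicate 2 at 1 d or any mouse at 14 d but the WT replicate 1 (0.682), for Mif the WT or cKO replicate 1 at 1 d or the cKO replicate 2 at 14 d (0.267), for Ccl5 the WT replicate 2 at 7 d (0.0740), for Isg15 the cKO replicate 2 at 1 d, the WT replicate 2 at 7 d or the cKO replicate 1 or WT replicate 2 at 14 d (0.460) and for Ifit3 the cKO replicate 2 at 1 d or replicate 1 at 14 d (0.642).

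The largest changes over time came from scarce transcripts or from 1 mouse. Hbb-bs, a hemoglobin chain, fell (log2 -5.93, edgeR adjusted p = 1.87e-11, 4 of 4 mice at 14 d below the mean at 1 d, range 5.72e-17 to 1), but 1726 of its 1788 UMIs in Cluster 10 came from the cKO replicate 2 at 1 d, and without that mouse p was 0.985. Hba-a1 and Hbb-bt, called as well (log2 -7.48 and -9.70), lost their calls without the same mouse, and Hba-a1 with the replicate block (edgeR adjusted p = 0.0530). Thbs1, thrombospondin 1, had 4, 13 and 5 UMIs in Cluster 10 and 0 in Cluster 6 of the 3 mice at 1 d and fell (log2 -8.31, edgeR adjusted p = 0.00745, 4 of 4 mice below all at 1 d, range 0.00115 to 0.966). Tnfsf12, the cytokine TWEAK, had 16 UMIs in Cluster 6 and 0 in Cluster 10 of the mice at 1 d. With 3 counts over these mice as the limit, Cluster 10 was then at least 4.02-fold lower, and 4930517O19Rik, with 29 and 0 UMIs, at least 7.29-fold lower. Both were called as rising (edgeR adjusted p = 0.0473 and 0.0378, 4 of 4 mice above all at 1 d each, ranges 0.0241 to 1.00 and 0.0190 to 1), and their fitted sizes of 7.26 and 7.13 depend on the prior count. Both calls were lost without any 1 of the mice at 1 d or of the cKO mice at 14 d (p up to 0.783 and 0.828), that of Tnfsf12 also without the WT replicate 1 at 14 d. DESeq2 called neither (adjusted p = 0.327 for both). With the conditions of the cell names both were lost as well (edgeR adjusted p = 0.9997). Thbs1 lost its call without either cKO mouse at 1 d (p up to 0.4656). A term for the 4 libraries that share barcodes, among them the replicate 1 mice at 1 d, also ended the Thbs1 call (edgeR adjusted p = 0.153). So did taking each mouse's condition from its cell names (edgeR adjusted p = 0.558).

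The difference also rose for Gm11290, Flt1 and Cd300lf. Gm11290 had ratios of 2.34, -1.34 and 0.11 at 1 d, none above 0 at 7 d and 1.26, 2.95, 3.66 and 2.31 at 14 d. Its rise of 4.57 from 1 d to 14 d held in all 23 alternatives (edgeR adjusted p = 1.98e-11, 4 of 4 mice above the mean at 1 d, range 1.02e-14 to 0.00181). Flt1, a receptor of VEGF, rose by 3.53 (edgeR adjusted p = 8.12e-08, 4 of 4 mice above all at 1 d, range 2.62e-11 to 0.327, lost in DESeq2), with Cluster 10 levels of 106, 308, 125 and 198 CPM at 14 d. Flt1 is also on the list of endothelial markers, whose sum was higher in Cluster 10 in 11 of 14 mice. The cause of its rise was not tested. Cd300lf, an inhibitory receptor of myeloid cells, rose by 5.58 (edgeR adjusted p = 0.000162, 4 of 4 mice above all at 1 d, range 4.93e-06 to 0.967), a call lost without the 4 libraries that share barcodes and in the libraries with animal numbers of 10000 and above, where only 14 d and 7 d are compared.

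Between 7 d and 14 d alone, edgeR called 12 of 6229 genes (0.193%), 4 with a difference that rose and 8 with one that fell. DESeq2 called 1, and 282 had an unadjusted p under 0.05 in edgeR. The count was 2 without the cKO replicate 2 at 7 d, 4 without the cKO replicate 1 at 14 d, 29 without the 4 libraries that share barcodes, 6 if the cell names set the conditions, and 11 with the replicate block for the paired difference. Risers were Gm11290 (5.34, edgeR adjusted p = 4.51e-10, 4 of 4 mice at 14 d above all at 7 d, range 8.52e-13 to 0.0254), Flt1 (2.57, edgeR adjusted p = 0.000427, 4 of 4 above the mean, range 1.66e-06 to 1.00), Prkg1, a cGMP-dependent kinase (1.55, edgeR adjusted p = 0.00397, 4 of 4 above all, range 4.65e-08 to 1.00), and Fat3, a giant cadherin (1.21, edgeR adjusted p = 0.00816, 4 of 4 above the mean, range 1.08e-07 to 1). Flt1, Prkg1 and Fat3 lost their calls without the cKO replicate 2 at 7 d (p up to 0.994, 1.00 and 0.432), Prkg1 and Fat3 without the WT replicate 2 at 7 d and Fat3 without the cKO replicate 1 at 14 d. DESeq2 called none of Flt1, Prkg1 and Fat3 (adjusted p = 0.9999 each). With the conditions of the cell names their calls were lost too (edgeR adjusted p = 0.539 for Flt1 and 0.923 for Prkg1).

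The fallers included transcripts of other cells. Gfap, the astrocytic filament, stood at 21.4, 66.2, 69.3 and 303 CPM in Cluster 10 at 7 d and 41.4, 64.3, 23.5 and 34.6 CPM at 14 d. Its difference fell (log2 -3.19, edgeR adjusted p = 9.60e-06, 4 of 4 mice below the mean at 7 d, range 1.36e-10 to 1.00), and the call was lost without the cKO replicate 1 at 14 d or the cKO replicate 2 at 7 d, the mouse with 303 CPM. Genes of neurons that fell were Snap25 (log2 -2.87, edgeR adjusted p = 0.00772, 4 of 4 mice below the mean, range 6.67e-05 to 1), Map2 (-2.54, edgeR adjusted p = 0.0102, 3 of 4, range 0.000104 to 1), Map1a (-2.19, edgeR adjusted p = 0.0272, 3 of 4, range 0.000819 to 1) and Nefm (-2.30, edgeR adjusted p = 0.0328, 3 of 4, range 1.90e-05 to 1). Each of these 4 calls was lost without either of the same 2 mice (p up to 1.00), those of Snap25, Map1a and Nefm also without the cKO replicate 2 at 14 d, and that of Map1a without the WT replicate 1 at 14 d or the WT replicate 2 at 7 d. With the replicate block the calls of Map2 (edgeR adjusted p = 0.308), Map1a (0.308) and Nefm (0.0590) were lost, and in DESeq2 or with the conditions of the cell names all 4. Also falling were Ccl12 (log2 -1.77, edgeR adjusted p = 0.0199, 3 of 4 mice below the mean, range 2.47e-06 to 1.00) and the immediate early gene Egr1, named after its values were seen (log2 -1.69, edgeR adjusted p = 0.00142, 4 of 4 mice, range 2.21e-07 to 1). Both were lost without the WT replicate 2 at 7 d (p of Egr1 then 0.714), and Ccl12 without either of the 2 mice named for Gfap. DESeq2 called neither of them, nor Gfap, and Egr1 was also lost with the conditions of the cell names.

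Injured and uninjured mice differed in the difference between clusters for 2 genes in edgeR (0.0321% of 6229), Ccl4 and Ccl3. In the uninjured mice Ccl4 stood at 117, 2927 and 9931 CPM in Cluster 10 and 21.6, 66.2 and 0 CPM in Cluster 6, and over the 11 injured mice at 308 to 2308 CPM and 32.3 to 504 CPM. The log2 ratios were 2.01, 5.27 and 9.96 uninjured and 0.26 to 3.76 after injury. The difference fell with injury, by a log2 change of -3.66 for Ccl4 (edgeR adjusted p = 6.22e-07, 11 of 11 injured mice below the uninjured mean, range 9.32e-15 to 0.672 over 22 alternatives). For Ccl3 the log2 change was -2.62 (edgeR adjusted p = 0.0332, 11 of 11, range 0.000388 to 0.745). Both calls were lost without the uninjured cKO replicate 2, which had 234 UMIs of Ccl4 in Cluster 10, and the count was then 0 (475 genes at an unadjusted p under 0.05). The cell names make this mouse a WT at 7 d. With the conditions of the names both calls were lost too (edgeR adjusted p = 0.352 for Ccl4 and 0.722 for Ccl3). With another mouse left out the count was 1 (without the cKO replicate 1 at 1 d or the WT replicate 2 at 7 d), 4 (without the cKO replicate 2 or the WT replicate 1 at 1 d, or the WT replicate 2 at 14 d) or 5 (without the cKO replicate 2 at 7 d), and otherwise 2 or 3. Ccl3 lost its call without the cKO replicate 1 at 1 d, the WT replicate 2 at 7 d or the uninjured WT replicate 2 as well, and p reached 0.745.

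That comparison depends on the libraries used. DESeq2 called 0 genes (309 at an unadjusted p under 0.05, against 534 in edgeR). Without the 4 libraries that share barcodes edgeR called 89 genes among 9837, of which 84 rose and 5 fell, and with the replicate block for the paired difference 12. Cd68 stood at 350, 146 and 382 CPM in Cluster 10 of the uninjured mice, with log2 ratios of 0.38, -1.51 and 0.01, and all 11 injured mice had ratios above 0. Its difference of 1.59 was not called (edgeR adjusted p = 0.118). The 3 uninjured mice had 23562 to 27330 UMIs of Cluster 10 each, and what part this had in the counts was not tested.

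Between genotypes, edgeR called 1 gene (0.0161% of 6229), the unnamed transcript Gm26870, and DESeq2 called 0. At an unadjusted p under 0.05 there were 193 genes in edgeR and 92 in DESeq2. The difference of Gm26870 between clusters was higher in cKO by 1.86 (edgeR adjusted p = 0.00019, range 2.93e-16 to 1.00). Its log2 ratios ran from -1.84 to 2.78 in the 7 WT mice and from -1.17 to 3.00 in the 7 cKO mice, which overlap, and 4 of 7 cKO mice lay above the WT mean. The call was lost without the WT replicate 1 at 14 d or the WT replicate 2 at 7 d, and if the cell names set the conditions p was 0.763. With the replicate block, so that the paired difference may vary by replicate number, 3 genes were called, and without the 4 libraries that share barcodes 5. Leaving out a mouse gave 6 (cKO replicate 1 at 14 d), 4 (WT replicate 2 at 14 d), 3 (cKO replicate 1 at 7 d or WT replicate 1 at 14 d), 2 (cKO replicate 2 at 14 d) or 1. A difference between Cluster 10 and Cluster 6 that depends on astrocytic Ryk was thus called in edgeR for no gene of the microglial lists, which with 7 mice per genotype does not show that there is none.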

How the data were processed

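Single cells of 16 mouse spinal cords were measured by droplet sequencing of mRNA ends, 1 mouse per library. The deposited counts are UMIs per gene and cell that the authors made with Cell Ranger and Seurat in R 4.1.2 and filtered by cell. How doublets were treated is not given in the sources used here, and none were removed here. The percent of mitochondrial UMIs, the clusters and the condition of each cell are columns of the authors' deposited cell table. UMIs were summed per mouse and cluster where both clusters had at least 10 cells. edgeR 4.0.16 (R 4.3.3, TMM scaling, its filter on low counts) fitted each mouse as a block, with a term for Cluster 10, and quasi-likelihood F tests, two-sided and adjusted after Benjamini and Hochberg, compared the difference between clusters over time, injury and genotype. DESeq2 1.42.0 fitted the same designs. Both were also run on simulated counts with known changes, drawn otherwise from the same mean level of a gene in every mouse. Those counts hold no differences between mice and no sorting of cells by expression. They therefore cannot decide between the tools where these disagree here. Log2 ratios per mouse used CPM with 10 added, and directions per mouse used CPM, both without TMM scaling. The gene annotation was GENCODE vM21 on GRCm38 (mm10). Genes named are those the study ties to microglia, the 12 highest and 12 lowest of those past 2-fold in every mouse, up to 4 most abundant members of each list with its members past 2-fold in every mouse, and up to 5 called genes per test and direction. Some genes that these rules name are not reported here. Members of the clusters and lists were chosen with earlier results of these data known. Each mouse left out in turn, other tools, filters and scalings, each replicate number alone, a replicate block, the conditions of the cell names, and libraries or cells with shared barcodes left out were the alternatives, the last chosen after seeing the data.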

Additional observations from a re-analysis of the deposited data

Results flagged for a closer look

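In 11 of 178 groups of 4 mice 1 mouse lay far from the others in the log2 ratio of Cluster 10 to Cluster 6, where chance gives about 1 in 20 groups, or 8.9. At 7 d it was the WT replicate 1, a shallow library, for Tmem119 (-6.24, with 0 UMIs in Cluster 10), Rtn1 (-4.59), Sort1 (-2.49), Itgb2 (1.40) and 4930517O19Rik (-2.28). At 14 d it was the WT replicate 2 for Tmem119 (-3.42), the WT replicate 1 for Plaur (0.92), the cKO replicate 1 for Ftl1 (2.41) and the cKO replicate 2 for P2ry13 (-1.48), Itgav (-1.004) and Mif (2.49).

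Differences between clusters that passed the edgeR test over 1, 7 and 14 d, given as the log2 difference of 14 d from 1 d, rose for Spp1 (2.107), Lpl (1.995), Clec7a (1.505), Tyrobp (1.131), Lyz2 (0.748), Ank (2.08), Pgk1 (1.89), Mif (1.475), Fn1 (2.955), Cxcl14 (3.33), Egr1 (0.882), Gm11290 (4.565), Flt1 (3.53), Cd300lf (5.58), 4930517O19Rik (7.13) and Tnfsf12 (7.26). They fell for Ccl2 (-3.37), Ccl5 (-1.495), Ccl12 (-1.40), Isg15 (-3.69), Ifit3 (-4.90), Hbb-bs (-5.93), Hbb-bt (-9.70), Hba-a1 (-7.48), Thbs1 (-8.315), Gfap (-0.992), Snap25 (-2.40), Map2 (-1.04) and Nefm (-2.50). For Egr1 and Gfap the sign of this fitted value, which weighs mice by depth, is opposite to that of the mean log2 ratio over mice. Map2 lost its call over time with the replicate block (edgeR adjusted p = 0.138).

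From 7 d to 14 d the difference rose for Gm11290 (5.34), Flt1 (2.57), Prkg1 (1.547) and Fat3 (1.21), and fell for Gfap (-3.19), Egr1 (-1.69), Snap25 (-2.87), Map2 (-2.545), Ccl12 (-1.77), Map1a (-2.19), Nefm (-2.30) and C230004F18Rik (-2.07). With injury it fell for Ccl4 (-3.66) and Ccl3 (-2.62), and it was higher in cKO for Gm26870 (1.86). Ank, Mif, Cxcl14, Egr1, Ccl2, Ccl5, Isg15 and C230004F18Rik were named after their values were seen.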

How the results depend on the processing

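Counts of genes past 2-fold stayed within 1.5 times of 827 in DESeq2 (900: 317 higher, 583 lower), with log2 ratios after adding 10 CPM (894: 157 higher, 737 lower), with at least 30 cells (891), without shared barcodes (846), in replicate 1 alone (798) and with any mouse left out (746 to 957). They moved further with no filter on low counts (4591 of 25935 genes), without cells with other markers (209 of 991 genes, 4 mice), with animal numbers of 10000 and above (1556), with 50 CPM added (198: 60 higher, 138 lower), in replicate 2 alone (1431) and without the 4 libraries that share barcodes (1486). For the last 2 and the animal numbers more genes were tested, and for 50 CPM the added level shrinks every ratio. Genes past 2-fold in every mouse were 195, 183 to 248 with a mouse left out, and 362 with at least 30 cells, 474 with animal numbers of 10000 and above, 319 in replicate 1 alone, 533 in replicate 2 alone and 362 without the 4 libraries, where fewer mice have to share a direction.

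The test over time, with 46 calls, gave 5 in DESeq2, 0 without cells with other markers (57 at an unadjusted p under 0.05), 25 with the conditions of the cell names, 29 without the 4 libraries and 76 with a term for them, and 21 to 85 with a mouse left out. That of 14 d against 7 d, with 12, gave 1 in DESeq2, 40 with animal numbers of 10000 and above, 6 with the names' conditions, 29 without the 4 libraries and 25 with a term for them, and 2 to 16 with a mouse left out. That of injured against uninjured, with 2, gave 0 in DESeq2 (309 unadjusted), 91 with animal numbers of 10000 and above, 12 with the replicate block, 1 with the names' conditions, 89 without the 4 libraries and 16 with a term for them, and 0 to 5 with a mouse left out. That of cKO against WT, with 1, gave 0 in DESeq2 (92 unadjusted), with at least 30 cells (219) and without cells with other markers (49), 2 with no filter and with the names' conditions, 7 with animal numbers of 10000 and above, 3 with the replicate block, without shared barcodes and with a term for the 4 libraries, 5 without them, and 1 to 6 with a mouse left out. The cause was not tested for these.

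Of 1653 log2 fold changes of 67 named genes under the alternatives 1545 differed by less than the spread between mice and 108 by more, and only Cadm1 and Itgb1 changed sign. Of 1016 adjusted p-values of 44 called differences 779 stayed past 0.05 and 237 did not. Not possible were injured against uninjured with at least 30 cells or without cells with other markers, 14 d against 7 d without cells with other markers, and the 1 d group without the 4 libraries or with animal numbers of 10000 and above, where 1 mouse was left. The uninjured mice had 23562 to 27330 UMIs of Cluster 10 each.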

Other observations

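The single cell of the WT replicate 2 at 1 d in the table belonged to Cluster 10 and held 266 UMIs of 220 genes. The 6 Cluster 6 cells of the uninjured cKO replicate 1 held 19194 UMIs. Neither animal entered a comparison.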
